A study of Rattus norvegicus with 11 samples.

Results

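Smooth muscle myosin and the enzymes that set its phosphorylation were followed through 10 genes in rat bladder tissue, chosen by symbol as the myosin chains (Myh9, Myh10, Myh11, Myl6 and Myl9), the kinase (Mylk) and the phosphatase side (Ppp1r12a, Ppp1r12b, Ppp1r14a and Prkg1). All 10 were present among the 18507 genes of the expression table, and all 10 passed the filter on low values in each comparison. These genes and the lists used below were chosen with earlier results of these data known, so counts among them are descriptive. Bladder tissues of Sprague-Dawley rats, which were female according to the methods, were sequenced in 4 groups. Normal bladder and bladder with partial outlet obstruction (PBOO, a suture tied around the bladder neck and urethra) were sampled at week 4, with 3 and 3 samples, and at week 5, with 3 and 2 samples. According to the methods, control rats had the abdominal incision alone. Whether each sample came from its own rat is not given in the labels, although the paper calls its repeats biological, so p-values measure the spread between these samples. For the 2 PBOO samples of week 5, the paper states that a sample was left out for quality control at library construction. Libraries of the weeks carry different kinds of names (the week 4 names end in Input, and the normal week 5 samples are named adult 1 to 3), so week and library set cannot be told apart.

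Contraction of smooth muscle is switched on when calcium-calmodulin activates myosin light chain kinase, encoded by Mylk, which phosphorylates the regulatory light chain of myosin. Myosin phosphatase reverses this step, and its targeting subunits are encoded by Ppp1r12a and Ppp1r12b. The inhibitor CPI-17, encoded by Ppp1r14a, holds the phosphatase back, while cGMP-dependent protein kinase, encoded by Prkg1, favours relaxation. Myh11 encodes the smooth muscle heavy chain, Myh9 and Myh10 encode nonmuscle heavy chains A and B, Myl9 encodes a regulatory light chain and Myl6 the essential light chain.

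Levels are given as FPKM (fragments scaled by exon length and by the total of mapped fragments), a value per transcript length, so that genes can be ranked within a sample. Changes are log2 fold changes of PBOO over normal on log2(FPKM + 0.1), from limma, and a gene is said to rise or fall where the unadjusted p was under 0.05. Benjamini-Hochberg adjustment covered all genes tested. The standard error is abbreviated as SE, and means are given ± SD with the number of samples n. FPKM sums ranged from 424961 to 564343 per sample, and the depth of sequencing is unknown. All 10 smooth muscle markers examined, such as Acta2, Tagln and Des, were detected in each of the 4 groups. Their summed level ran from 23804 to 25587 FPKM in normal and from 48496 to 80205 FPKM in PBOO samples at week 4. At week 5 the sums were 23135 to 27115 FPKM in normal and only 932 and 1759 FPKM in PBOO samples.

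RefSeq promoter windows (GRCr8, 250 bases before to 50 after a gene's start) were matched for 8 of the 10 genes, and those of Myh11 and Myl9 were not matched. The upstream stretches of Mylk and Myh9 are shown because Mylk fell strongly at week 5 while Myh9 did not pass the test. Capitals mark matches on either strand to CATTCC, the core of the MCAT element, or to TATAAA.
Mylk promoter (chr11:79498575-79498824, minus strand): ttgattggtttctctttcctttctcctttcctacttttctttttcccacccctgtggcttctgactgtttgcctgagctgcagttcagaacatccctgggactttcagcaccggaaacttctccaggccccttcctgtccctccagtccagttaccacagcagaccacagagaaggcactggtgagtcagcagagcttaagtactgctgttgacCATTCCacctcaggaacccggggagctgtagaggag
Myh9 promoter (chr7:111304964-111305213, minus strand): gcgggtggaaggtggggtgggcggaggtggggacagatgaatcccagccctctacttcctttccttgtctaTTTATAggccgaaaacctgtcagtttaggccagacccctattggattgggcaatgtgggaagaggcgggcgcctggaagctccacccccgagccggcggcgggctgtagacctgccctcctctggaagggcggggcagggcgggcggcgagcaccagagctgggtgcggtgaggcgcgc
The Mylk stretch holds CATTCC with its first base at position -36 from the start, and the Myh9 stretch holds TATAAA, read on the opposite strand, with its first base at position -179. Myh9 has a second annotated start, without such a match. CATTCC was also found in the Myh10 window, at position -118, and no other window of these genes held either motif. Of 33469 promoters of this length, 14.2% held CATTCC and 14.2% held TATAAA. Whether either motif has a part in the changes was not tested. Which start of Mylk is used in this tissue is not known from a value per gene. The CArG box, the site of serum response factor, was searched on both strands as an exact match. Only 1.64% of all promoters hold it, so no match is likely among the 9 windows of these genes, and none was found. This absence says nothing about these genes, and Myh11 and Myl9 have no window. GC content was 53.7% in the Mylk window and 64.7% in that Myh9 window, against a median of 51.7% over all promoters.

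In normal bladder, the regulatory light chain and the smooth muscle heavy chain were among the most abundant messages. Myl9 ranked 8 and Myh11 ranked 23 of 18507 genes by mean FPKM at week 4, and they ranked 7 and 9 at week 5. Mylk came next among the kinase and phosphatase genes, at 666 ± 43.4 FPKM (n = 3) at week 4 and 451 ± 71.9 FPKM (n = 3) at week 5. Ppp1r14a and Ppp1r12a did not differ beyond their spread at week 4, with 256 ± 20.7 and 250.3 ± 32.1 FPKM (n = 3). Prkg1 was the lowest of the 10, at 4.11 ± 0.624 FPKM (n = 3) at week 4 and 0.919 ± 0.303 FPKM (n = 3) at week 5. The order of the others was Ppp1r12b, Myh9, Myh10 and Myl6 at week 4, where the ranges of Myh10 and Myl6 and of Myl6 and Prkg1 overlapped. At week 5 Myl6 came next after Myl9 and Myh11, and the ranges of Myh9 and Ppp1r14a and of Ppp1r12a and Ppp1r12b overlapped. The levels of each sample are shown in the plot of the 10 genes.

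**Figure D1:**
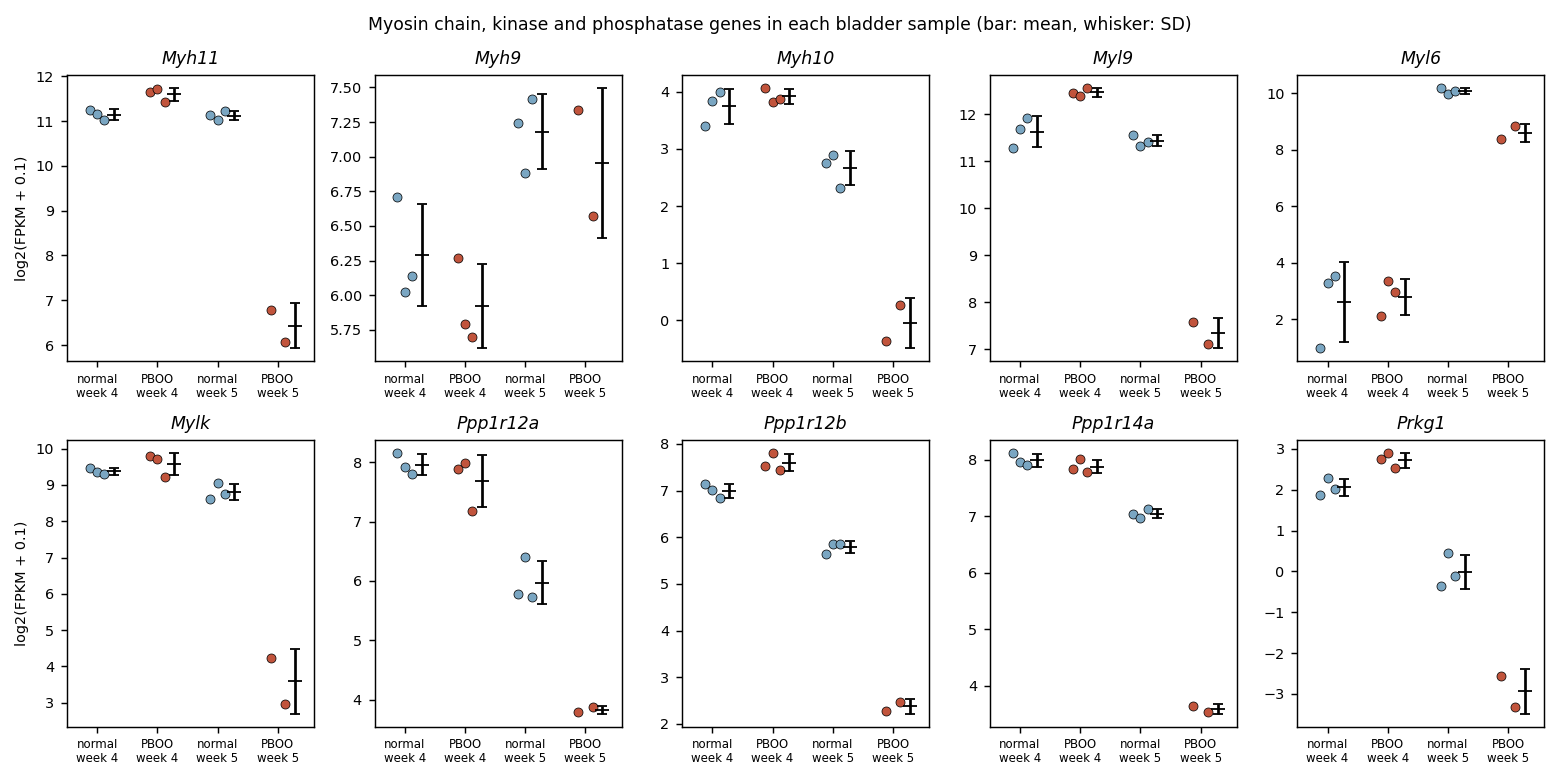
Level of each of the 10 genes, as log2(FPKM + 0.1), in every sample of the 4 groups (points), with the mean and SD of each group (bars). In PBOO samples of week 5 all genes but Myh9 lie below every normal sample of that week, and Myl6 is far lower at week 4 than at week 5.

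At week 4, 4 of the 10 genes rose in PBOO bladder and none fell. The background was 5.76% of 11320 genes higher and 26.2% lower at the same threshold, and all genes together had a median log2 fold change of -0.25. The median of the 10 genes was 0.20. At an adjusted p under 0.05 with a 2-fold change limma called none of the 10, where 0.265% of all genes were called higher and 0.106% lower. Changes at this week therefore rest on the unadjusted p. The 4 genes that rose were also those in which every PBOO sample lay above every normal sample, which held for 6.63% of all genes (34.9% had every PBOO sample below).

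Markers of other cell types moved at week 4 too. Of 8 urothelial markers tested, 7 fell and none rose (median log2 fold change -0.74), and their summed level was 5309 to 6545 FPKM in normal and 3094 to 3940.1 FPKM in PBOO samples. Of 10 smooth muscle markers, 7 rose and none fell. None of the 7 fibroblast markers passed the test, although their median was 0.90, and none of 7 leukocyte markers tested did (median 0.40). Of 6 endothelial markers, 2 fell and none rose (median -0.18). Of 8 striated muscle markers, 3 rose and 1 fell (median -0.18). The part of these shifts in the changes of the myosin genes was not tested.

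Myh11 rose modestly at week 4. Its values were 2453, 2294 and 2073 FPKM in normal samples and 3203, 3380.2 and 2754 FPKM in PBOO samples. The groups did not overlap, although the lowest PBOO sample was close to the highest normal one. The log2 fold change was 0.45 (SE 0.16, limma adjusted p = 0.117), a 1.37-fold rise. The unadjusted p was 0.0260, and it was 0.0840 without normal week 4 replicate 2, 0.116 without normal replicate 3 and 0.0938 without PBOO replicate 2 (limma). With the replicate number as a block, limma gave an unadjusted p of 0.0729, and 0.0670 without the filter on low values.

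The regulatory light chain gene Myl9 rose at week 4. Normal samples held 2492, 3289 and 3906 FPKM, and PBOO samples held 5593, 5335 and 6084 FPKM. All PBOO values thus stood well above the normal ones. The log2 fold change was 0.83 (SE 0.21, limma adjusted p = 0.0755), or 1.78-fold. Under quantile normalization it was 0.52, with an unadjusted p of 0.102 in limma.

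Among the phosphatase genes, Ppp1r12b rose while Ppp1r12a did not pass the test. Ppp1r12b, the targeting subunit that is abundant in muscle, was at 141, 129.6 and 115 FPKM in normal and at 186, 224 and 175 FPKM in PBOO samples. No value of one group fell within the other, and the log2 fold change was 0.60 (SE 0.13, limma adjusted p = 0.0629). Ppp1r12a, the more widely expressed targeting subunit, had 286, 242 and 223 FPKM in normal and 237, 254 and 145 FPKM in PBOO samples. These groups overlapped, and PBOO replicate 3 was lowest. Its log2 fold change was -0.27 (95% interval -0.80 to 0.26, limma adjusted p = 0.402).

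Prkg1 rose from a low level. Normal samples had 3.56, 4.79 and 3.98 FPKM and PBOO samples 6.62, 7.30 and 5.67 FPKM, so the groups were apart. Its log2 fold change was 0.66 (SE 0.19, limma adjusted p = 0.0840). The inhibitor gene Ppp1r14a gave 279, 249.8 and 239 FPKM in normal against 228, 258 and 221 FPKM in PBOO samples. Its groups overlapped, with a log2 fold change of -0.12 (95% interval -0.39 to 0.14, limma adjusted p = 0.457), which became 0.13 after median-ratio scaling of the samples.

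For the kinase gene Mylk, normal samples had 713, 659 and 627 FPKM and PBOO samples 889, 836 and 599 FPKM. PBOO replicate 3 was below all normal samples and the other two were above them. The log2 fold change of 0.20 (95% interval -0.21 to 0.60, limma adjusted p = 0.425) did not pass. It was 0.45 after median-ratio scaling and 0.45 after quantile normalization, with unadjusted p-values of 0.0114 and 0.0479 in limma, and 0.37 without PBOO replicate 3, with 0.0195. Mylk also carries the short product telokin, and its reads cannot be separated from those of the kinase in a value per gene.

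The nonmuscle heavy chains did not pass the test at week 4. Myh9 had 104, 65.0 and 70.4 FPKM in normal and 77.0, 55.4 and 51.9 FPKM in PBOO samples. Its groups overlapped, with a log2 fold change of -0.37 (95% interval -0.90 to 0.16, limma adjusted p = 0.273), and the unadjusted p was 0.0124 with the replicate block and 0.0432 without PBOO replicate 1 in limma. Myh10 had 10.5, 14.2 and 15.8 FPKM against 16.8, 14.1 and 14.5 FPKM. Here too the groups overlapped, and its log2 fold change of 0.18 (95% interval -0.24 to 0.60, limma adjusted p = 0.488) became 0.43 after median-ratio and 0.40 after quantile scaling, with unadjusted p-values of 0.0406 and 0.0486 in limma.

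Myl6 was listed at 1.87, 9.72 and 11.5 FPKM in normal and at 4.198, 10.004 and 7.60 FPKM in PBOO samples of week 4. Its mean in normal bladder was 141-fold higher at week 5 than at week 4. Of 555 genes that had at least 100 FPKM in normal week 5 samples and were above 0 in normal week 4 samples, 4 differed by 100-fold or more. In addition, no week 4 sample had a value above 0 for 62 of the 657 genes whose week 5 mean reached 100 FPKM. The week 4 level of Myl6 is therefore given as listed, and its log2 fold change of 0.19 (95% interval -1.43 to 1.82, limma adjusted p = 0.853) turned to -0.62 without normal replicate 1 and to -0.08 without PBOO replicate 2.

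**Figure D2:**
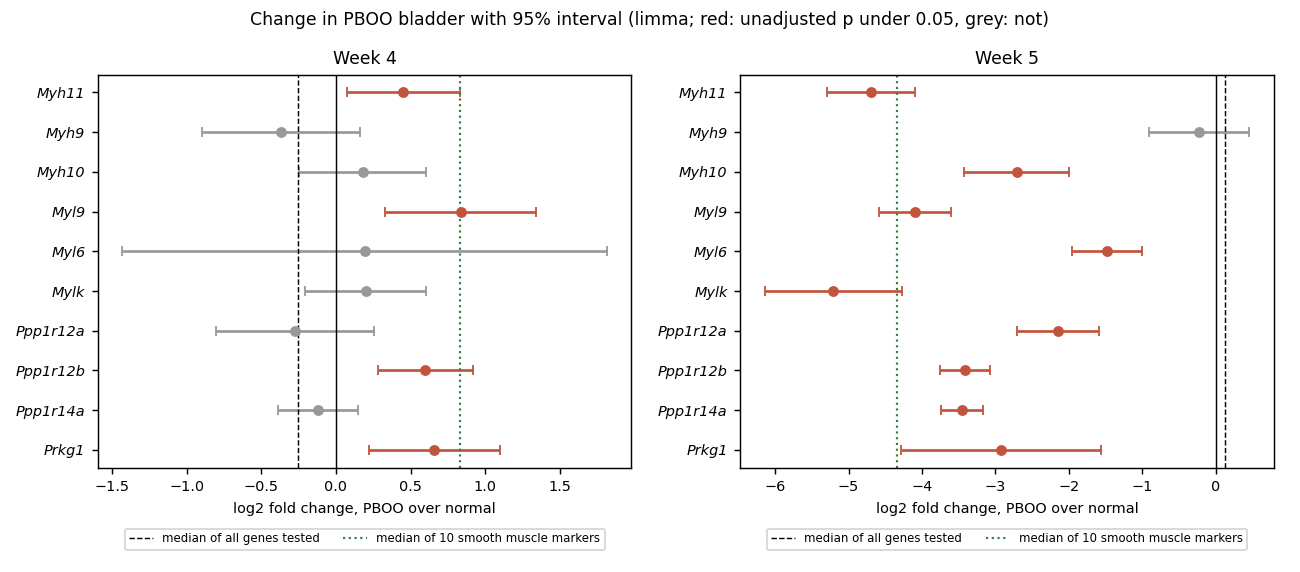
Log2 fold change of PBOO over normal for each gene at week 4 (left) and week 5 (right), with 95% intervals from limma, in red where the unadjusted p was under 0.05. Dashed lines mark the median of all genes tested and dotted lines the median of 10 smooth muscle markers, 0.83 at week 4 and -4.34 at week 5, the axes of the panels differing in range.

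At week 5 the direction was the opposite, and 9 of the 10 genes fell in PBOO bladder, all but Myh9. At the unadjusted threshold, 18.8% of 13685 genes were lower and 24.6% higher. The same 9 genes passed an adjusted p under 0.05 with a 2-fold change in limma, which 11.4% of all genes did in this direction and 7.91% in the other. The median of the 10 genes was -3.17, against 0.12 for all genes. In 9 genes every PBOO sample lay below every normal sample, as in 25.0% of all genes, while 35.3% had every PBOO sample above. Prkg1, at 0.919 ± 0.303 FPKM (n = 3) in normal samples, passed the filter on low values through them alone, so a fall was the only call open to it, and the other 8 falls do not share this limit. In bulk tissue, fewer cells of a type and less RNA per cell cannot be told apart.

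Markers of several cell types moved at the same week. All 10 smooth muscle markers fell, with a median log2 fold change of -4.34, and all 7 fibroblast markers fell, with a median of -3.56. Of 7 leukocyte markers tested, 7 rose, with a median of 3.01, and none of the 8 listed was at 0 in the PBOO samples. The summed level of the leukocyte list was 25.1 to 65.8 FPKM in normal samples. It was 190 and 1073 FPKM in PBOO samples, which thus differed widely. The urothelial list was mixed, with 5 of 9 genes lower and 1 higher, and its summed level was 5753 to 6806 FPKM in normal and 5451 to 6189 FPKM in PBOO samples. The similar sums hold opposite changes. Krt5 was at 134 ± 43.1 FPKM (n = 3) in normal and at 780 and 2859 FPKM in PBOO samples. Upk2 went from a mean of 1704 to 324 FPKM, and Krt20 from 66.9 to 0.661 FPKM. Of 6 endothelial markers, 1 rose and none fell, with a median of 0.61. Of 6 striated muscle markers tested, 5 fell and 1 rose, with a median of -3.14. The part of these shifts in the changes of the myosin genes was not tested.

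Mylk, Myh11 and Myl9 fell strongly. Mylk had 392, 531 and 430.2 FPKM in normal samples and 18.6 and 7.72 FPKM in PBOO samples. Both PBOO values were far below the lowest normal one, and the log2 fold change was -5.21 (SE 0.38, limma adjusted p = 0.000684), a 37.0-fold difference. It was -5.84 without PBOO replicate 1 and -4.58 without PBOO replicate 2. Myh11 went from 2239.9, 2079 and 2401 FPKM in normal to 111 and 67.4 FPKM in PBOO samples. That is a log2 fold change of -4.69 (SE 0.24, limma adjusted p = 0.000289), or 25.9-fold. Myl9 had 3026, 2572 and 2744 FPKM in normal and 189.8 and 138 FPKM in PBOO samples (log2 fold change -4.10, SE 0.20, limma adjusted p = 0.000288). These changes lie near the median of the smooth muscle markers, as the plot of the changes shows.

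The genes of the 2 phosphatase targeting subunits and of the inhibitor fell as well. Ppp1r12b had 49.8, 58.2 and 57.9 FPKM in normal and 4.70 and 5.47 FPKM in PBOO samples, with a log2 fold change of -3.42 (SE 0.14, limma adjusted p = 0.000213). Ppp1r12a had 55.1, 84.1 and 53.1 FPKM in normal and 13.7 and 14.5 FPKM in PBOO samples. Its log2 fold change of -2.15 (SE 0.22, limma adjusted p = 0.00220) came from PBOO values that lay close together. Ppp1r14a, the inhibitor gene, went from 131, 126 and 140.4 FPKM to 12.5 and 11.5 FPKM, with the replicates of each group close together and a log2 fold change of -3.46 (SE 0.11, limma adjusted p = 0.000178).

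Prkg1 had 0.680, 1.26 and 0.817 FPKM in normal samples, was at 0.0703 FPKM in PBOO replicate 1 and was listed at 0 in PBOO replicate 2. At levels this low the size of the change follows the pseudocount. The log2 fold change was -2.92 (SE 0.55, limma adjusted p = 0.0135), but -0.88 with a pseudocount of 1 and -4.99 with 0.01. Without normal week 5 replicate 2 the gene was left out by the filter on low values.

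Among the remaining chains, Myh10 went from 6.66, 7.32 and 4.90 FPKM in normal to 0.678 and 1.10 FPKM in PBOO samples. Its log2 fold change was -2.71 (SE 0.29, limma adjusted p = 0.00232). Myl6 had 1170.3, 996 and 1080.0 FPKM in normal and 332 and 451 FPKM in PBOO samples, with a log2 fold change of -1.48 (SE 0.19, limma adjusted p = 0.00425). When all 11 samples shared 1 estimate of the spread, the unadjusted p of Myl6 was 0.0565 in limma. Myh9 had 151, 118 and 171 FPKM in normal against 162 and 94.98 FPKM in PBOO samples. One PBOO value lay inside the normal range and the other below it, with a log2 fold change of -0.23 (95% interval -0.91 to 0.46, limma adjusted p = 0.568).

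With Myh11 so low while Myh9 did not pass the test, the makeup of the heavy chain messages was different. The part of the shifts in cell type markers in this makeup was not tested. Among the 4 heavy chain genes, with the nonmuscle gene Myh14 included, Myh11 made up 94.9% ± 0.769 (n = 3) of the summed FPKM in normal and 96.9% ± 0.563 (n = 3) in PBOO samples of week 4. At week 5 it made up 90.4% ± 0.870 (n = 3) in normal bladder, but 28.0% and 32.9% with PBOO. There Myh9 took 41.0% and 46.4% and Myh14 30.8% and 20.2%. Myh10 stayed under 1% in every sample, with a highest share of 0.725%. The order of the 10 genes changed as well. In PBOO samples of week 5 Myl6 was highest, at 392 ± 83.8 FPKM (n = 2), and the ranges of Myl9 and Myh9 and of Myh9 and Myh11 overlapped.

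**Figure D3:**
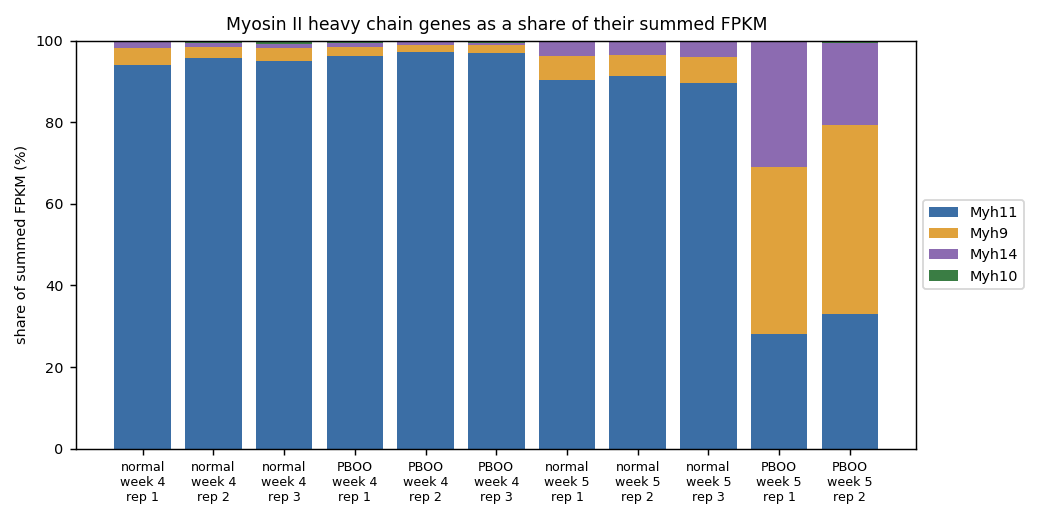
Share of Myh11, Myh9, Myh14 and Myh10 in their summed FPKM, in percent, for each of the 11 samples. Myh11 takes 89.6% or more of each bar except in the PBOO samples of week 5, where Myh9 is the largest.

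Ratios within a sample do not depend on how that sample was scaled, and 7 were compared. The exact permutation test (two-sided) cannot go below p = 0.1 with 3 against 3 samples or 0.2 with 3 against 2, so these are read by whether the groups overlap. At week 4, Ppp1r12b was at 51.4% ± 2.18 (n = 3) of Ppp1r12a in normal and at 95.6% ± 21.9 (n = 3) in PBOO samples, without overlap (exact p = 0.1). Mylk was at 268% ± 16.3 (n = 3) of Ppp1r12a in normal and at 372% ± 41.6 (n = 3) in PBOO samples, again apart (exact p = 0.1). Myh9 was at 3.49% ± 0.715 (n = 3) of Myh11 in normal and 1.98% ± 0.391 (n = 3) in PBOO samples, also apart (exact p = 0.1). Relative to Mylk, Prkg1 was at 0.620% ± 0.114 (n = 3) in normal and at 0.855% ± 0.102 (n = 3) in PBOO samples (exact p = 0.1). The ratios Myh10/Myh11, Myl6/Myl9 and Ppp1r14a/Ppp1r12a overlapped between groups at week 4.

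At week 5, 6 ratios could be formed in every sample, and the groups were apart in all 6 (exact p = 0.2 each). Separation was common at this week. Of all genes, 35.3% had every PBOO sample above every normal sample and 25.0% had every one below. Several ratios share a gene, so they are not separate results, and no share over other gene pairs was computed at either week. Mylk was at 717% ± 89.6 (n = 3) of Ppp1r12a in normal samples and at 136% and 53.2% in PBOO samples. Ppp1r12b was at 89.5% ± 19.9 (n = 3) of Ppp1r12a in normal and at 34.4% and 37.7% in PBOO samples. Ppp1r14a stood at 217% ± 59.9 (n = 3) of Ppp1r12a in normal and at 91.1% and 79.1% in PBOO samples. All 3 ratios were thus lower in both PBOO samples than in any normal sample of that week. In contrast, Myh9 was at 6.51% ± 0.741 (n = 3) of Myh11 in normal and at 146% and 141% in PBOO samples, and Myl6 was at 38.9% ± 0.382 (n = 3) of Myl9 against 175% and 326%. Myh10 was at 0.285% ± 0.0749 (n = 3) of Myh11 in normal and at 0.613% and 1.63% in PBOO samples.

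**Figure D4:**
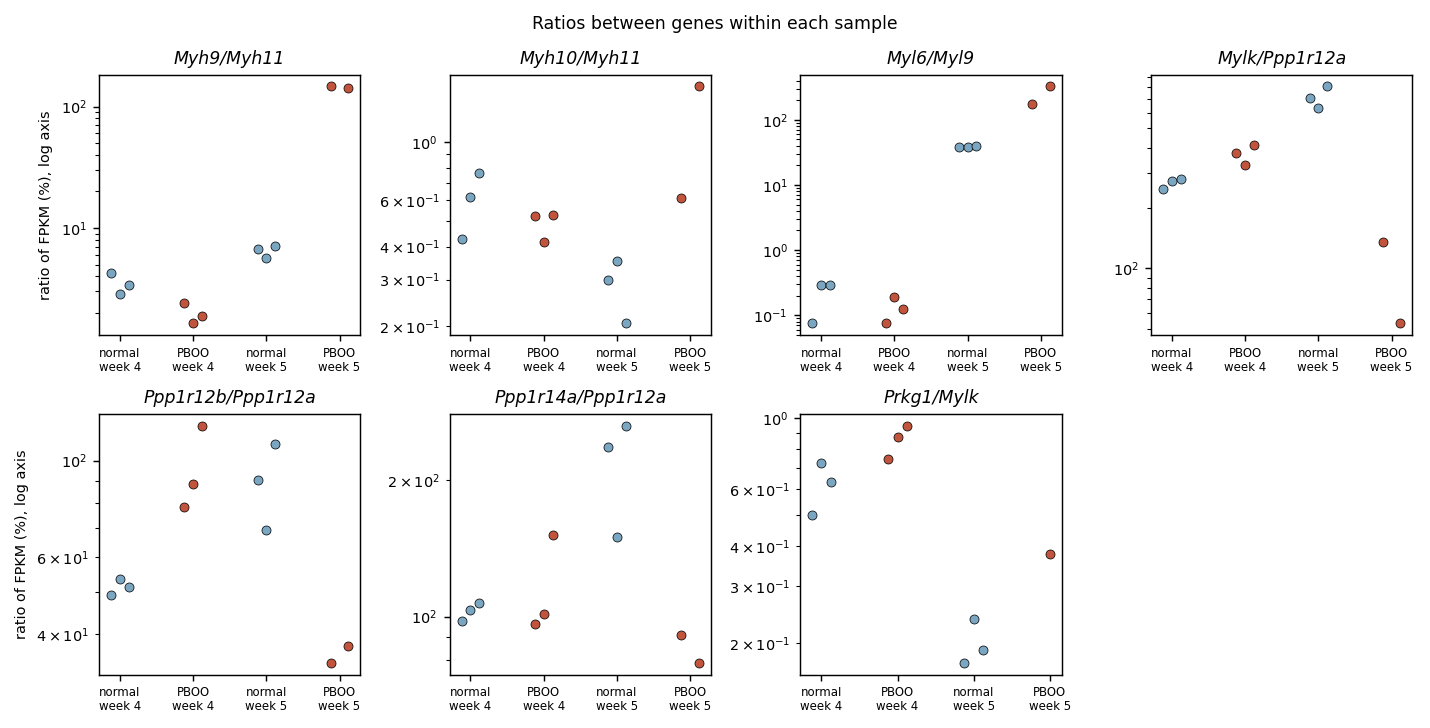
Ratio of the FPKM of 2 genes within each sample, in percent on a log axis, for 7 ratios in the 4 groups, with 1 point per sample. PBOO replicate 2 of week 5 is missing for Prkg1/Mylk because Prkg1 was listed at 0, and Mylk/Ppp1r12a is above the normal samples in PBOO at week 4 and below them at week 5.

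The difference of the PBOO effect between weeks was tested as an interaction over all 11 samples. It was negative in 8 of the 10 genes at an unadjusted p under 0.05, while 15.7% of 11296 genes were lower and 34.6% higher in this test. The same 8 passed an adjusted p under 0.05 with a 2-fold difference, as did 11.6% of all genes in this direction and 15.6% in the other. For Mylk the interaction was -5.41 (SE 0.42, limma adjusted p = 1.23e-05), and it was -6.04 without PBOO week 5 replicate 1 and -4.78 without replicate 2. For Myh11 it was -5.14 (SE 0.28, limma adjusted p = 2.25e-06). Those of Myh10 (-2.89) and Prkg1 (-3.58) were -2.11 and -1.44 with a pseudocount of 1, and -3.91 and -2.85 after quantile normalization. Neither Myh9 nor Myl6 passed. The interaction was 0.14 (95% interval -0.70 to 0.99, limma adjusted p = 0.786) for Myh9 and -1.67 (95% interval -3.58 to 0.23, limma adjusted p = 0.141) for Myl6, whose week 4 values are the doubtful ones described above. Myl6 did pass in 6 of 16 alternatives, with unadjusted limma p-values of 0.0476 after median-ratio scaling, 0.0150 after quantile normalization, 0.0127 with the replicate block, 0.0458 and 0.0270 without normal week 4 replicate 2 or 3, and 0.0477 without PBOO week 4 replicate 1. Its interaction was -0.86 without normal week 4 replicate 1.

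Other genes of myosin phosphorylation were taken from hand-written lists. Of 25 genes that act towards phosphorylation, such as calmodulins, kinases and guanine nucleotide exchange factors, 21 were tested at week 4. Among them 4 rose and 4 fell (5.76% and 26.2% of all genes), with a median log2 fold change of -0.09, and after median-ratio scaling 7 rose and 0 fell in limma (the counts at the same unadjusted threshold). Rock2, a kinase that inhibits the phosphatase, rose from 42.9 ± 5.42 to 80.4 ± 5.33 FPKM (n = 3), a log2 fold change of 0.91 (SE 0.12, limma adjusted p = 0.0483). Ilk, which encodes integrin-linked kinase, went from 205 ± 2.78 to 382 ± 54.5 FPKM (n = 3), a log2 fold change of 0.89 (limma adjusted p = 0.0483). Other genes that passed, named after their values were seen, included Cdc42bpa (log2 fold change 0.44) and Dapk3 (0.30), which rose, and Dapk2 (-0.65), Ppp1r14b (-0.52) and Dapk1 (-0.46), which fell. At week 5, 4 of 22 tested genes of this list rose and 5 fell, where 24.6% and 18.8% of all genes did, so these shares lie near the background. Its largest falls were in Prkce, a protein kinase C gene, with a log2 fold change of -1.46, in Rock2 with -1.39, in the calmodulin gene Calm2 with -1.28 and in Ilk with -1.25 (limma adjusted p = 0.0120, 0.00255, 0.00904 and 0.00177). None of the 4 that rose reached 2-fold. The largest rise, named after its values were seen, was in Ppp1r14b, from 81.8 to 163 FPKM (log2 fold change 0.998, limma adjusted p = 0.00600). Ppp1r14b had fallen at week 4.

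A list on dephosphorylation and cGMP signalling held 17 genes, such as catalytic phosphatase subunits and guanylate cyclases, and also Pde5a, which breaks down cGMP and so acts in the opposite direction. At week 4, 1 of 13 tested rose and 2 fell (5.76% and 26.2% of all genes), against 3 and 1 after median-ratio scaling. The gene that rose was Ppp1r12c, a further targeting subunit (log2 fold change 0.77), and the catalytic subunit gene Ppp1ca fell (-0.32) beside Rgs2, both named after their values were seen. Ppp1r12c fell at week 5, from a mean of 164 to 36.7 FPKM (log2 fold change -2.16, limma adjusted p = 0.000289). Rgs2, which dampens signals of Gq-coupled receptors, fell from 231 ± 23.7 to 103 ± 50.3 FPKM (n = 3), a log2 fold change of -1.31 (SE 0.39, limma adjusted p = 0.0889). At week 5, 10 of 14 tested genes fell and 2 rose (18.8% and 24.6% of all genes), with a median of -1.54 (1 rose after median-ratio scaling). Mrvi1, which encodes the substrate of Prkg1 at calcium stores, had the largest fall, from 38.5 ± 2.67 FPKM (n = 3) to 2.64 ± 0.197 FPKM (n = 2), a log2 fold change of -3.82 (SE 0.13, limma adjusted p = 0.000178). Next came Rgs2 with -3.05, Pde5a, the phosphodiesterase of cGMP, with -2.60, and Gucy1b3, a guanylate cyclase subunit, with -2.41 (limma adjusted p = 0.00672, 0.00327 and 0.00242). Nos3, the endothelial nitric oxide synthase gene, rose with a log2 fold change of 1.003 (limma adjusted p = 0.0676). Of the catalytic subunit genes, Ppp1ca rose (0.40, limma adjusted p = 0.0487) and Ppp1cb fell (-0.68, limma adjusted p = 0.0725), both named after their values were seen. Gucy1b3 and Gucy1a3 were listed at 0 in every week 4 sample.

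The other regulatory light chain genes moved differently from Myl9 at week 5. Myl12a was at 199.9 ± 20.8 FPKM (n = 3) in normal and 315 ± 62.3 FPKM (n = 2) in PBOO samples (log2 fold change 0.65, limma adjusted p = 0.0437). Myl12b went from 186 ± 6.25 FPKM (n = 3) to 332 ± 16.3 FPKM (n = 2), with a log2 fold change of 0.84 (limma adjusted p = 0.00556). At week 4 Myl12b fell, with a log2 fold change of -0.63 (limma adjusted p = 0.0917), and Myl12a had -0.09. Both genes were named after their values were seen, and since their sequences are alike, reads may have been split between them. Myh14 had log2 fold changes of -0.31 and -0.26 and passed at neither week.

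Of 14 striated muscle myosin genes, 10 were tested at week 4, where 1 rose and none fell in limma (1 fell with a pseudocount of 1), and 3 at week 5, where 1 rose and 2 fell. Of all genes, 5.76% rose and 26.2% fell at week 4, and 24.6% rose and 18.8% fell at week 5. The gene that rose at week 4 was the atrial light chain gene Myl4 (log2 fold change 0.95), and those that fell at week 5 were the heavy chain genes Myh2 and Myh6, which passed the filter through their normal samples alone, so that a fall was the only call open to them. Mylpf, the fast skeletal regulatory light chain, rose from 1.73 ± 0.429 FPKM (n = 3) to 4.94 ± 0.204 FPKM (n = 2) at week 5, a log2 fold change of 1.49 (limma adjusted p = 0.0104). The summed level of the list ranged from 10.999 to 132 FPKM in normal and from 6.66 to 171 FPKM in PBOO samples of week 4, and from 4.88 to 6.22 FPKM in all samples of week 5.

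**Figure D5:**
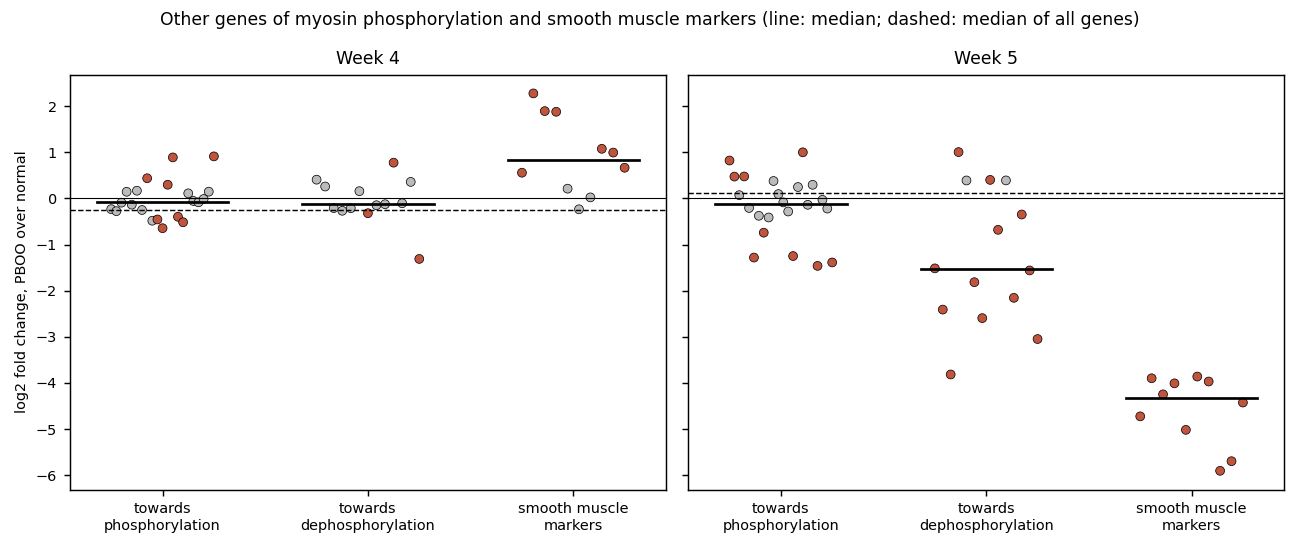
Log2 fold change of PBOO over normal for genes acting towards phosphorylation, for the list on dephosphorylation and cGMP signalling (Pde5a included) and for smooth muscle markers, at week 4 (left) and week 5 (right), in red where the unadjusted p was under 0.05. Solid lines are list medians, -0.09, -0.13 and 0.83 at week 4 and -0.11, -1.54 and -4.34 at week 5, and dashed lines the median of all genes.

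The profile over the 11 samples was compared between genes by the root mean square distance of log2(FPKM + 0.1) after each gene's mean was subtracted, with 7229 candidate genes that averaged 5 FPKM or more in each week. Myh10 and Prkg1 lie below that limit at week 5 and have no rank themselves, although Myh10 served as a target. Nearest to Myh11 were Hspb6 (distance 0.23), Lmod1 (0.25), Tagln (0.26), Lims2 (0.29) and Acta2 (0.29). Of the 10 genes, Myl9 ranked 18, Mylk 28, Ppp1r14a 46 and Ppp1r12b 103 by nearness to Myh11, while Ppp1r12a ranked 268 and Myh9 ranked 5998. Myh10 had other neighbours, with Rarres2 (distance 0.27), Mxra8 (0.27), Olfml3 (0.28), Zeb1 (0.28) and Tpst1 (0.29) the nearest and Myh11 at rank 364. These distances are descriptive, and all samples of a week share its library set.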

How the data were processed

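Bladder mRNA of 11 samples was analysed, and groups, weeks and replicate numbers were taken from the sample titles. The authors deposited 1 table with FPKM values of 18507 genes in 11 columns, which were mapped to samples by their descriptions. According to the methods, reads were trimmed with SeqPrep and Sickle, mapped with HISAT2, assembled with StringTie and expressed as FPKM with featureCounts. The submitters' processing notes name bcl2fastq 2.0 and the mouse build mm10, but 2367 symbols of the table carry rat prefixes (LOC, RGD or RT1), so the build of the files is uncertain. Annotation and strand setting are not given in the sources used here. The table holds no read counts. Ratios of low values between replicates were within 0.5% of ratios of whole numbers in 9.96% to 13.3% of genes (7.68% to 11.2% after shuffling), so whole reads were not recovered and no count test was run.

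Each week was fitted separately with limma 3.58.1 in R 4.3.3 on log2(FPKM + 0.1), with a trend in eBayes and a minimum mean of 0.5 FPKM per gene. The difference between weeks was an interaction over all 11 samples, for genes above 0 in each week. Thresholds were an unadjusted p of 0.05 and, more strictly, an adjusted p of 0.05 with a 2-fold change. The members and lists were chosen with earlier results of these data known. Named genes are the 10 members, list genes with an unadjusted p under 0.05, a 2-fold change and a mean of at least 1 FPKM (at most 4 per list, direction and week), and the 5 nearest profiles of Myh11 and Myh10. Rock2 and Ilk at week 4, and other list genes behind small counts, were named outside this rule after their values were seen, and 1 list gene is not reported here by name. Ratios were compared with exact permutation tests in scipy 1.17.1. Of the list genes, 2 symbols (Myl6b and Myh13) were not matched, and 3 were matched by an older symbol. The fits were checked on simulated data with known changes. Replicate numbers repeat across groups, but the sample titles name no pairing, so they were not treated as pairs. Same-numbered normal and PBOO samples had correlations of their deviations of 0.15, -0.02 and 0.23 at week 4. Differently numbered ones had -0.21 to 0.094, so these values do not exclude a pairing. Not all PBOO columns are numbered as in the titles. Pseudocount, filter, scaling, trend, block, shared spread and leaving out each sample were tried as alternatives.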

Additional observations from a re-analysis of the deposited data

Results flagged for a closer look

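The effect of PBOO differed between week 4 and week 5 by the interaction test in 8 of the 10 genes, at a limma unadjusted p under 0.05. The interaction (log2 effect at week 5 minus that at week 4) was -5.41 for Mylk, -5.14 for Myh11, -4.93 for Myl9, -4.02 for Ppp1r12b, -3.58 for Prkg1, -3.34 for Ppp1r14a, -2.89 for Myh10 and -1.87 for Ppp1r12a. In Myh11, Myl9, Ppp1r12b and Prkg1 every PBOO sample was above the normal samples at week 4 and below them at week 5. Week and library set cannot be told apart in these values.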

How the results depend on the processing

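Median-ratio scaling moved the week 4 median over all genes (log2 fold change) from -0.25 to -0.01. Relative to the median of all genes, the changes at week 4 were 0.70 for Myh11, 1.09 for Myl9, 0.85 for Ppp1r12b, 0.91 for Prkg1, 0.45 for Mylk, 0.43 for Myh10 and -0.12 for Myh9. With this scaling the log2 fold change of Ppp1r14a at week 4 was 0.13, and 7 genes rose and 0 fell on the phosphorylation list, while 3 rose and 1 fell on the dephosphorylation list. At week 5 it left 1 gene higher on the latter list. With a pseudocount of 1, 1 striated muscle myosin gene was lower at week 4. The interaction of Myh9 was -0.14 with median-ratio scaling and -0.13 with quantile normalization. Over the samples left out in turn it ranged from -0.24 to 0.53, the log2 fold change of Myh9 at week 5 from -0.61 to 0.16, that of Myl6 at week 4 from -0.62 to 0.66, and the log2 difference of Ppp1r14a/Ppp1r12a at week 4 from -0.054 to 0.27. The number of the 10 genes that fell at week 4 was 1 with the replicate block, and 0 to 1 over the samples left out. The cause was not tested.

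The number of genes that rose at week 4 ranged from 3 to 6 over all alternatives, and the number that fell at week 5 from 8 to 9. Leaving out a PBOO sample of week 5 leaves 1 in its group, which limma then assumes to vary like the normal samples. The sample titles name no pairing by replicate number. The replicate block ended the call of Myh11 and added Myh9 at week 4. It also added Myl6 in the interaction, with an estimate of -1.67, as 5 other alternatives did. Of all single-gene values under an alternative, 400 kept their direction and side of the threshold, 13 passed it newly, 7 lost it and 9 changed sign. Depth is unknown, so errors from counting could not be given, which bears most on Prkg1 and Myh10.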
